A study of Mus musculus with 6 samples.

Results

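Interferon beta and the genes that interferons switch on were followed in mouse immature dendritic cells (imDCs) with and without fluid shear stress (FSS). The 42 genes were picked by symbol: Ifnb1, the 4 receptor subunit genes and 37 interferon-stimulated genes. All 42 were found among the 18071 genes with values, and all were at 1 FPKM or more (fragments per kilobase of transcript, scaled to the mapped total of each library) in at least 3 libraries, the condition for testing, which 10899 genes met. Ifnb1 met it only through its FSS libraries.

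The FSS group held 3 libraries of imDCs loaded with 10 dyn/cm2 for 3 h in a cone-plate device, in which a turning cone drags medium over the cells. The static group held 3 libraries of imDCs kept without flow. Both came from marrow of male C57BL/6 mice aged 7 weeks, cultured over 7 days in IL-4 at 10 ng/ml plus GM-CSF at 20 ng/ml, then enriched for CD11c, so both groups carry these cytokines and that selection. The labels do not say whether the libraries of a group stem from separate mice or cultures, so the tests measure the spread between these libraries, which may be technical.

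Interferon beta is a secreted alarm protein, made when sensors of foreign nucleic acid or toll-like receptors activate IRF3, IRF7 and NF-kB. It binds a receptor of the IFNAR1 and IFNAR2 chains, whose kinases JAK1 and TYK2 activate a transcription factor complex that turns on genes carrying an interferon-stimulated response element. Interferon gamma acts through IFNGR1 and IFNGR2, which signal to gamma-activated sequences. Dendritic cells both make and answer interferon, which shapes their maturation.

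Promoters of 4 genes are shown, because Ifnb1 and Ifi35 carried the calls described first, Irgm1 stands for the members that were lower in FSS, and Ifit3 for those whose direction differed between pairs of libraries. Each runs 5′ to 3′ from 250 bases before to 50 bases after the gene's start (RefSeq, GRCm38.p6; the build behind the deposited values is not given in the sources used here). The Ifnb1 window is chr4:88522745-88523044, minus strand. The Ifi35 window is chr11:101448162-101448461, plus strand. The Irgm1 window is chr11:48871371-48871670, minus strand. The Ifit3 window is chr19:34583279-34583578, plus strand. Capitals mark matches on either strand to 4 motifs. The interferon-stimulated response element was searched as GAAA, any 2 bases and GAAA again. The IRF core was AANNGAAA, which every such element contains, and the gamma-activated sequence was TTCNNNGAA. The NF-kB site of the interferon beta enhancer was searched as the letters that stand in capitals from position -116 of Ifnb1.
Ifnb1: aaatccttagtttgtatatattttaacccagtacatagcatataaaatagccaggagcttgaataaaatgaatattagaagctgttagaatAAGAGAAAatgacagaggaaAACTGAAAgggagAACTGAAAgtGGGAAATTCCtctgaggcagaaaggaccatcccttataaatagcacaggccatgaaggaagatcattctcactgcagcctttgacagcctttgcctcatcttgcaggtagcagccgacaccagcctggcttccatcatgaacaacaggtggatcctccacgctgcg
Ifi35: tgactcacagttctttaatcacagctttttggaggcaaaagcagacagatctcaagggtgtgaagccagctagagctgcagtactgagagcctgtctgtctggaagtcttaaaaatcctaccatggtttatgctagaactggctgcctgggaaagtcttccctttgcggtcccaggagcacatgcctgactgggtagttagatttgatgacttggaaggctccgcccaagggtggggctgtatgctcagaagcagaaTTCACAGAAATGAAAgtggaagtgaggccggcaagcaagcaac
Irgm1: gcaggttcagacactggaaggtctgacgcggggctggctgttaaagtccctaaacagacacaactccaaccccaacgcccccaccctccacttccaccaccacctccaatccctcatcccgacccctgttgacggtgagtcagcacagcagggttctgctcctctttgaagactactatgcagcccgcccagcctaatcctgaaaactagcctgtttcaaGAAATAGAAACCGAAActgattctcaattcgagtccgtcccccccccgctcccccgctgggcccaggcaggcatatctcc
Ifit3: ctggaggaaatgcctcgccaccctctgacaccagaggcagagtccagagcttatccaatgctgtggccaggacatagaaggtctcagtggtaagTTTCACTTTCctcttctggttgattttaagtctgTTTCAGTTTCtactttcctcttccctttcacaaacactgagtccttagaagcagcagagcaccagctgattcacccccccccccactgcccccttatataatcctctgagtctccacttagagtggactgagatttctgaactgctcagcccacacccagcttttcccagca
Positions are those of a match's first base in the window, relative to the gene's start. The Ifnb1 window held the NF-kB site at -116, with IRF cores at -159, -139 and -126. The Ifi35 window held a gamma-activated sequence at 8 and an IRF core at 15, which overlap, both past the start. Irgm1 held a pair of overlapping response elements at -30 and -24, and Ifit3 held 2 at -156 and -122, on the other strand. RefSeq windows were given for 33 of the 42 genes (38 windows, some genes having several starts). The response element stood in 47.4% of these 38 windows, against 3.44% of all 32851 windows, and TTCNNNGAA in 28.9% against 8.3%. AANNGAAA stood in 68.4% against 23.9%. Most members were picked as interferon-stimulated genes, so the choice itself favours higher shares of these 3 motifs, which say nothing about FSS. The NF-kB site was searched because it is the site of the Ifnb1 enhancer, so its match there is no finding; 0.11% of all windows held it. A match is a description of the letters and not of binding.

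Ifnb1 messenger RNA was higher in every FSS library than in every static library. It stood at 2.59, 2.03 and 2.45 FPKM in FSS replicates 1 to 3, against 0.21, 0.09 and 0.48 FPKM in static replicates 1 to 3. The groups did not overlap, and the level was low in both. As every static library was under 1 FPKM, the filter for testing fixed this lack of overlap and its direction in advance. The means were 2.36 ± 0.291 FPKM in FSS and 0.26 ± 0.2 FPKM in static cells (SD, n = 3 each), a 9.06-fold ratio. On the log2(FPKM + 1) scale, which understates changes of low genes, Ifnb1 rose by 1.42 ± 0.17 (SE; limma, Benjamini-Hochberg adjusted p = 0.0156). With 0.1 in place of 1 added, the log2 difference was 2.91 (limma adjusted p = 0.0313), and without the filter on low values the adjusted p was 0.0488. In bulk RNA, more cells making a transcript and more transcript per cell cannot be told apart.

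In this fit, which did not use the replicate numbers, the call for Ifnb1 depended on the libraries. It was kept without FSS replicate 3 (limma adjusted p = 0.0143) and without static replicate 3 (limma adjusted p = 0.0401). It was lost without FSS replicate 1 (limma adjusted p = 0.0766), FSS replicate 2 (0.0857), static replicate 1 (0.11) or static replicate 2 (0.0763), with Ifnb1 higher in FSS in each case.

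Ifi35, whose product acts in a cytosolic complex with the protein NMI, was the other member past the threshold. It gave 20.62, 24.53 and 16.91 FPKM in FSS replicates 1 to 3, against 45.4, 40.4 and 46.45 FPKM in static replicates 1 to 3. Every FSS library was below every static one. Ifi35 fell by 1.07 ± 0.18 on the log2(FPKM + 1) scale (SE; limma adjusted p = 0.0408). This call was kept without FSS replicate 3 (limma adjusted p = 0.0271) and lost without any other single library (limma adjusted p of 0.103 to 0.177). It was also lost with library totals made equal (limma adjusted p = 0.0583) and without the filter (limma adjusted p = 0.0784).

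**Figure D1:**
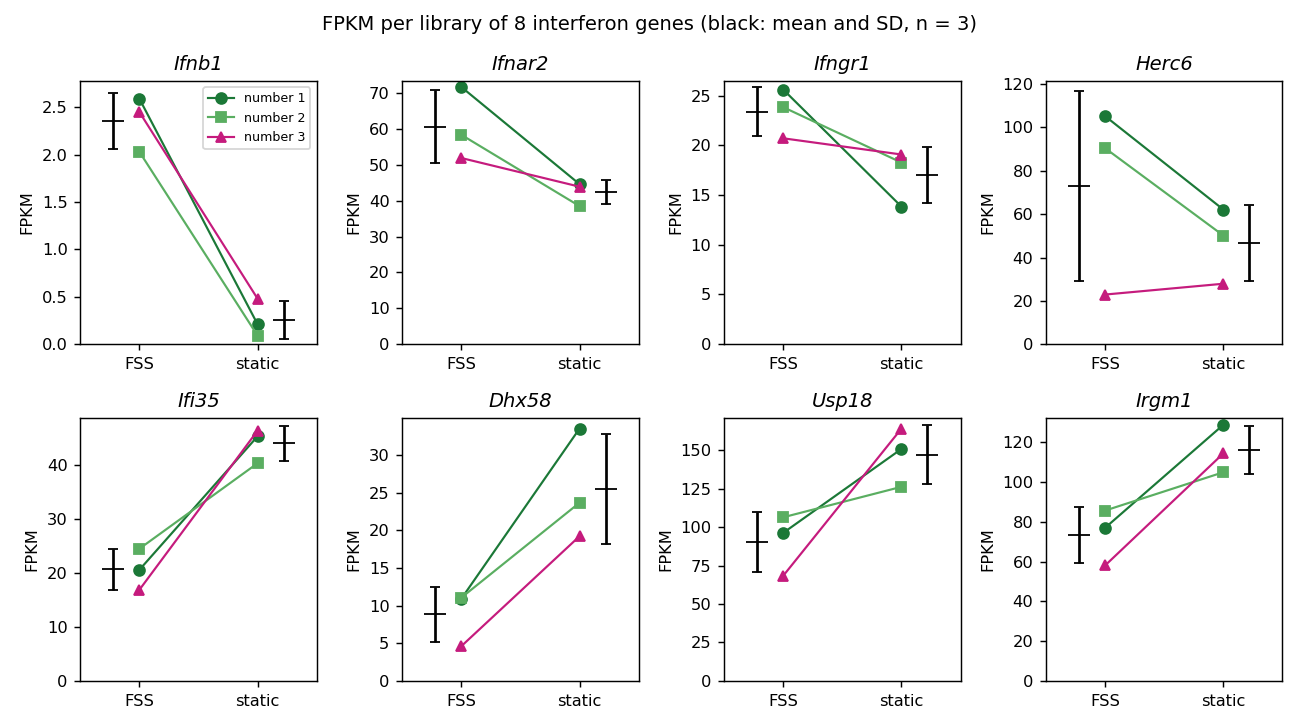
FPKM of 8 genes in each library, FSS left and static right; lines join libraries of the same replicate number, and black marks give the mean and SD of 3 libraries. Ifnb1 sits at 2.03 to 2.59 FPKM in FSS and 0.09 to 0.48 FPKM in static libraries, Ifi35 at 16.91 to 24.53 and 40.4 to 46.45 FPKM, and Herc6 runs the other way in number 3 than in numbers 1 and 2.

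Among all 42 members, 1 was higher and 1 lower in FSS without the replicate number in the fit (2.38% each), against 0.853% and 0.862% of the 10899 genes tested. At an unadjusted limma p under 0.05 there were 3 higher and 7 lower members (7.14% and 16.7%), against 4.27% and 13.8% of genes tested. Libraries of the same number deviated together, so the numbers were taken as pairs, and limma was also run with the replicate number as a block. With the block 5 members rose (11.9%, against 7.73% of genes tested) and 12 fell (28.6%, against 25.1%). With the block and median-ratio scaling, which divides each library by its median ratio to the others, 7 rose (16.7%, against 19.2%) and 10 fell (23.8%, against 16.8%). The members' shares lay near these background shares. Ifi35 fell with the block (limma adjusted p = 0.00211), and with block and scaling (0.000376). Ifnb1 rose in the same 2 fits (limma adjusted p = 0.000623 and 3.76e-05) and is among the rises counted here. It was tested only through its FSS libraries, so these values are no separate support for its rise. The fits with the block were not run without the filter. The median member stood 0.16 log2 lower in FSS, and the median gene 0.12 lower; after scaling the medians were -0.01 for the members and 0.02 for all genes.

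**Figure D2:**
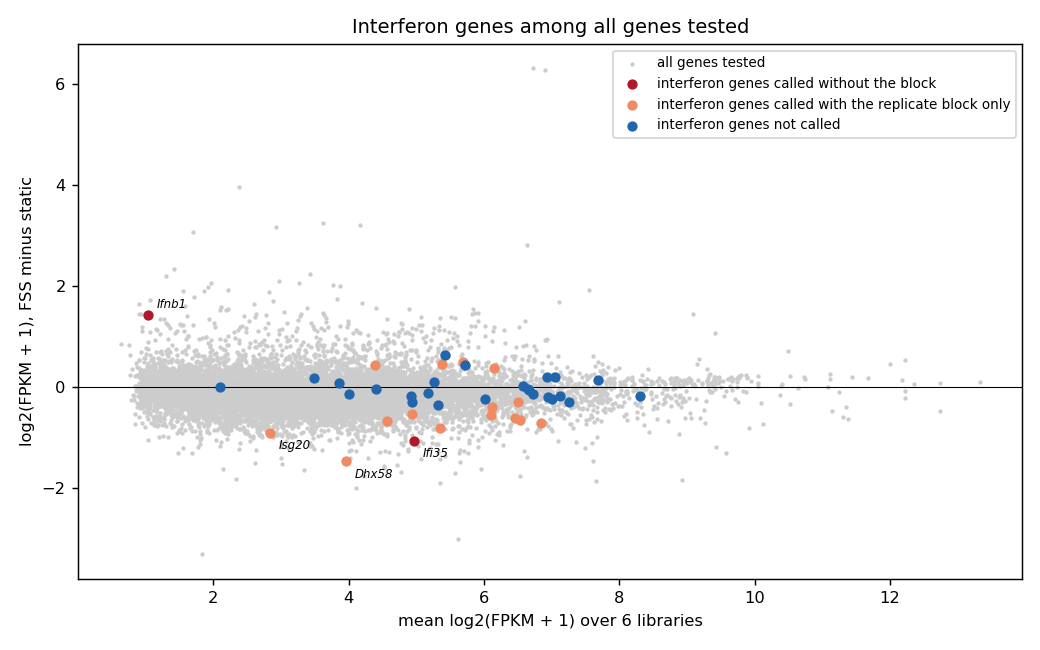
Log2(FPKM + 1) difference, FSS minus static, against the mean level over 6 libraries for 10899 genes (grey) and 42 interferon genes (coloured by call). Ifnb1 (1.42) stands at the low end of the level axis, and Dhx58 (-1.47) and Ifi35 (-1.07) are the lowest of the 42.

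Of 4 receptor genes, 2 rose with the block, where 7.73% of all genes tested rose. Ifnar2 stood at 71.7, 58.37 and 51.9 FPKM in FSS replicates 1 to 3, against 44.62, 38.5 and 43.91 FPKM in static replicates 1 to 3. Ifngr1, the ligand-binding chain for interferon gamma, stood at 25.61, 23.84 and 20.71 FPKM in FSS, against 13.84, 18.27 and 19.08 FPKM in static replicates 1 to 3. For both genes every FSS library was above every static one. Both rose with the replicate block only: Ifnar2 by 0.50 log2 (limma adjusted p = 0.0123 with the block, 0.195 without) and Ifngr1 by 0.44 log2 (0.0483 with it, 0.259 without).

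The partner chains did not pass. Ifnar1 stood at 39.51, 39.04 and 24.23 FPKM in FSS, against 42.88, 34.11 and 32.97 FPKM in static replicates 1 to 3, with overlapping groups. Ifngr2 stood at 60.88, 63.12 and 52.29 FPKM in FSS, against 75.48, 70.55 and 63.89 FPKM in static replicates 1 to 3; every FSS library was below every static one. The limma adjusted p with the block was 0.496 for Ifnar1 and 0.0588 for Ifngr2. The Ifnar1 difference of -0.12 log2 turned to 0.04 after median-ratio scaling. Ifnar2, Ifnar1 and Ifngr2 all lie on chromosome 16 in RefSeq.

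Of 4 sensors of foreign nucleic acid, 3 fell with the block, where 25.1% of all genes tested fell. Dhx58, which encodes LGP2, a regulator of the RNA sensors, stood at 10.91, 11.05 and 4.61 FPKM in FSS, against 33.5, 23.66 and 19.21 FPKM in static replicates 1 to 3. The groups did not overlap, and each FSS library was less than its static partner. The log2 difference of Dhx58 was -1.47 with an SE of 0.34 (limma adjusted p = 0.0792); it fell with the block (limma adjusted p = 0.00112) and without FSS replicate 3 (limma adjusted p = 0.0434). Ddx58, the RNA sensor RIG-I, stood at 31.54, 26.65 and 17.32 FPKM in FSS, against 47.12, 33.8 and 29.38 FPKM in static replicates 1 to 3. Zbp1, a sensor of Z-form nucleic acid that can start cell death, stood at 71.52, 70.02 and 41.66 FPKM in FSS, against 93.92, 90.53 and 56.49 FPKM in static replicates 1 to 3. Groups overlapped for both, but each was lower in all 3 pairs and fell with the block (limma adjusted p = 0.00828 and 0.0105). The Zbp1 call was lost with block and scaling (limma adjusted p = 0.0641).

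Ifih1, the RNA sensor MDA5, stood at 245.64, 180.42 and 62.51 FPKM in FSS, against 168.89, 124.26 and 86.22 FPKM in static replicates 1 to 3. FSS was above static in pairs 1 and 2 and below it in pair 3, and Ifih1 did not pass with or without the block (limma adjusted p = 0.424 and 0.889).

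Genes whose products block translation of viral RNA included 1 that fell with the block, where 25.1% of all genes tested fell. Eif2ak2, the kinase PKR, which halts translation on double-stranded RNA, stood at 38.83, 40.98 and 16.46 FPKM in FSS, against 70.28, 57.53 and 37.26 FPKM in static replicates 1 to 3. Its log2 difference was -0.82 (limma adjusted p = 0.309 without the block and 0.00399 with it). Ifit1, Ifit2 and Ifit3, which bind foreign RNA or the translation machinery, did not pass in either fit. Their pair differences ran from -0.84 (Ifit1, pair 3) to 0.36 (Ifit2, pair 2), and pair 3 was the lowest for each. Reads of Ifit1 and Ifit3 may be shared with their close copies Ifit1bl1 and Ifit3b.

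Of 5 members of the oligoadenylate synthetase family, 2 fell with the block, where 25.1% of all genes tested fell. The synthetases make the messenger that activates RNase L; mouse OASL1 lacks this activity. Oas1a stood at 62.95, 64.74 and 42.29 FPKM in FSS, against 91.23, 79.79 and 77.23 FPKM in static replicates 1 to 3. Oas3 stood at 23.54, 23.27 and 10.06 FPKM in FSS, against 30.83, 29.99 and 25.83 FPKM in static replicates 1 to 3. Every FSS library was below every static one for both, and both fell with the block only (limma adjusted p = 0.0104 and 0.0262). Oas2, Oasl1 and Oasl2 gave log2 differences of 0.07, 0.20 and 0.02, were above static in pairs 1 and 2 and below in pair 3, and did not pass. Oas1a has near copies such as Oas1g, between which reads are divided only uncertainly.

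Of 3 genes of the ISG15 system, 1 fell with the block, where 25.1% of all genes tested fell. Isg15, a ubiquitin-like tag and the highest of the 42 by group mean, stood at 330.31, 327.15 and 239.11 FPKM in FSS, against 381.7, 333.28 and 297.65 FPKM in static replicates 1 to 3, and did not pass. Usp18, which removes the tag and restrains IFNAR2 signalling, stood at 96.26, 106.39 and 68.37 FPKM in FSS, against 150.82, 126.19 and 164.03 FPKM in static replicates 1 to 3. The groups did not overlap, and Usp18 fell with the block (log2 difference -0.71; limma adjusted p = 0.0167, against 0.134 without). Herc6, the main ISG15 ligase of mice, stood at 105.21, 90.43 and 22.91 FPKM in FSS, against 62.12, 50.13 and 27.9 FPKM in static replicates 1 to 3. It was above static in pairs 1 and 2 and below in pair 3. Herc6 did not pass with the block alone (limma adjusted p = 0.13) and rose with block and scaling (0.0176) and without both libraries numbered 3 (0.0404).

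Antiviral effectors included falls and a rise with the block, where 25.1% of all genes tested fell and 7.73% rose. Isg20, an RNA exonuclease, stood at 5.27, 4.67 and 3 FPKM in FSS, against 10.28, 7.71 and 8.51 FPKM in static replicates 1 to 3, without overlap (log2 difference -0.91; limma adjusted p = 0.0814 without the block and 0.00317 with it). Bst2, or tetherin, which holds budding virus at the membrane, stood at 85.11, 90.35 and 68 FPKM in FSS, against 106.38, 100.88 and 92.62 FPKM in static replicates 1 to 3. Its fall with the block (limma adjusted p = 0.0357) was lost with block and scaling (0.229). Samd9l, a repressor of translation, stood at 78.68, 62.3 and 21.92 FPKM in FSS, against 48.99, 38.81 and 22 FPKM in static replicates 1 to 3. It rose with the block (limma adjusted p = 0.0489), although pair 3 showed no rise (-0.01 log2).

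Mx2, an antiviral GTPase related to dynamin, stood at 82.32, 53.27 and 32.62 FPKM in FSS, against 46.15, 21.72 and 37.46 FPKM in static replicates 1 to 3, and did not pass with the block alone (limma adjusted p = 0.0774). It rose with block and scaling (limma adjusted p = 0.011) and with the block without both libraries numbered 3 (0.000347). Without these libraries and without the block, Mx2 did not pass (limma adjusted p = 0.135). Its relative Mx1 gave a log2 difference of -0.24 and did not pass. Rsad2 (viperin, which makes a chain-terminating nucleotide) and its neighbour Cmpk2 gave 0.13 and -0.13 and did not pass; both were above static in pairs 1 and 2 and below in pair 3. Of the other stimulated genes, Ifi44, Rtp4, Xaf1, Parp14 and Trim30a did not pass, with log2 differences of -0.35 (Rtp4) to -0.01 (Ifi44).

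The interferon-inducible GTPases attack vacuoles holding pathogens. With the block 2 of these 8 members fell and 1 rose, where 25.1% and 7.73% of all genes tested did so. Irgm1, a regulator of the immunity-related GTPases, stood at 76.94, 85.61 and 58.04 FPKM in FSS, against 128.72, 104.86 and 114.33 FPKM in static replicates 1 to 3. Ifi47, another of these GTPases, stood at 80.08, 80.15 and 53 FPKM in FSS, against 135.81, 102.52 and 90.63 FPKM in static replicates 1 to 3. For neither gene did the groups overlap, and both fell with the block (limma adjusted p = 0.00814 and 0.00503, against 0.129 and 0.215 without). Gbp5, a guanylate-binding protein tied to inflammasome activation, stood at 130.77, 102.01 and 38 FPKM in FSS, against 86.98, 73.19 and 35.65 FPKM in static replicates 1 to 3. Groups overlapped, FSS was above static in all 3 pairs, and Gbp5 rose with the block (limma adjusted p = 0.0354). Gbp2, Gbp3, Gbp7, Igtp and Iigp1 did not pass, at log2 differences of -0.30 (Gbp2) to 0.18 (Iigp1); the guanylate-binding genes resemble each other in sequence, so their reads may be shared.

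**Figure D3:**
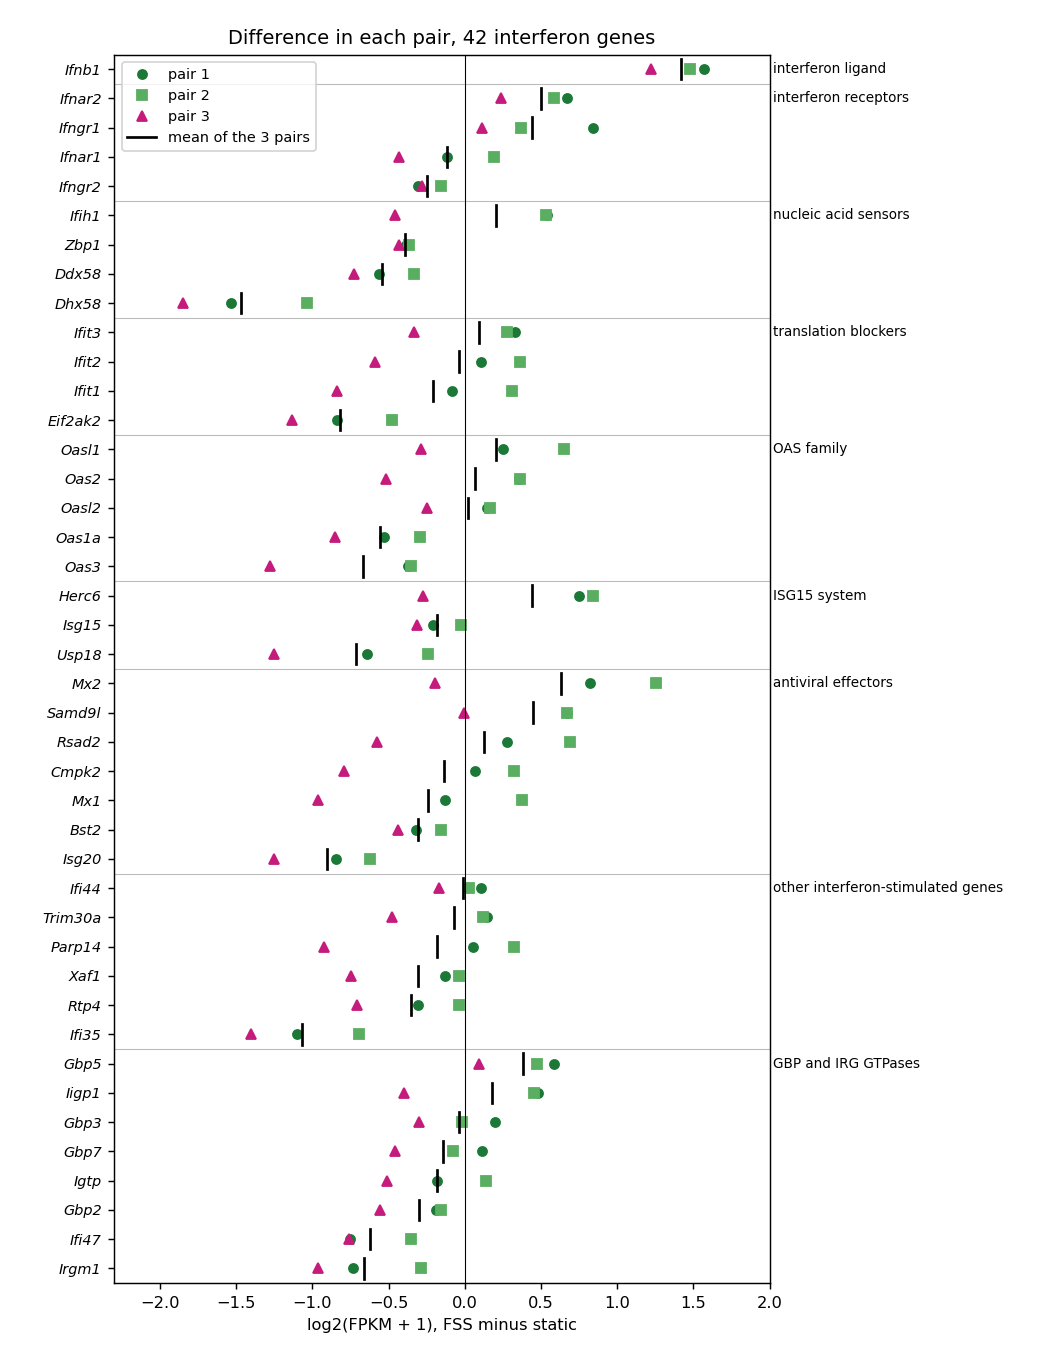
Log2(FPKM + 1) difference, FSS minus static, of 42 genes by role; symbols are the 3 pairs of equal replicate number and black bars their mean. Ifnb1 lies between 1.22 and 1.57 in the 3 pairs, while pair 3 is the lowest for most other genes.

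Without overlap between groups, 3 members stood above static (Ifnb1, Ifnar2 and Ifngr1; 5.1% of genes tested did so) and 10 below (23.8%, against 20.4%). For Ifnb1, which was tested only through its FSS libraries, the filter fixed this direction in advance, in groups and in pairs. In pairs, 4 members were above static in all 3 (9.52%, against 17.1% of genes tested) and 17 below in all 3 (40.5%, against 47.3%). Below static in pair 3 were 38 members (90.5%, against 76.1%). Above static in pairs 1 and 2 but below in pair 3 were 15 members (35.7%, against 15.6%). After median-ratio scaling this last pattern held for 12 members (28.6%, against 7.26%), while 10 were above in all 3 pairs (23.8%, against 34.6%) and 13 below in all 3 (31%, against 30.1%). The 15, before scaling, were Cmpk2, Herc6, Ifi44, Ifih1, Ifit2, Ifit3, Iigp1, Mx2, Oas2, Oasl1, Oasl2, Parp14, Rsad2, Samd9l and Trim30a. The member median was -0.02, 0.13 and -0.49 log2 in pairs 1 to 3, against -0.08, -0.07 and -0.22 for all genes tested.

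**Figure D4:**
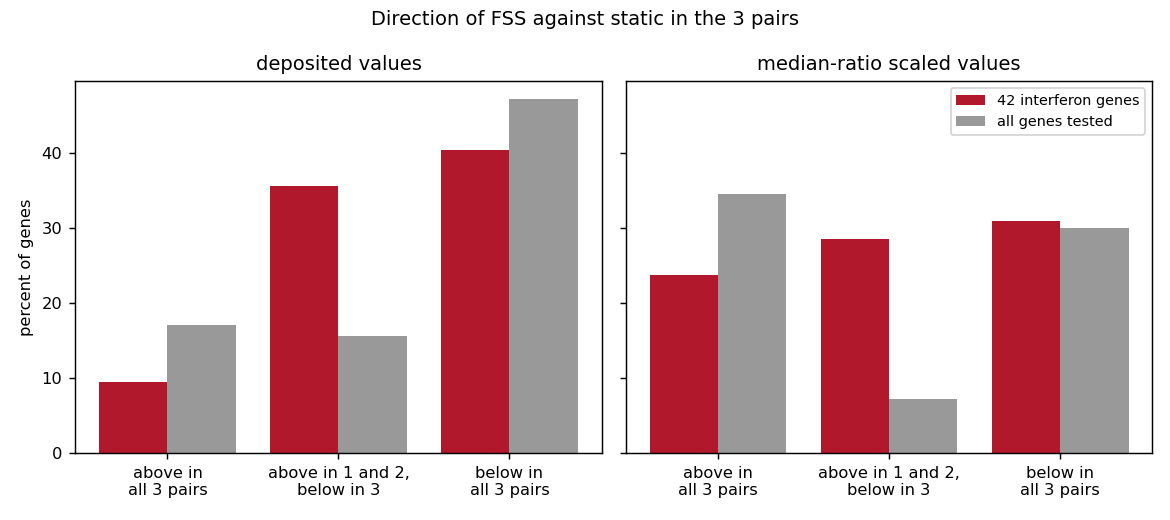
Percent of 42 interferon genes (red) and of 10899 genes tested (grey) with 3 patterns of direction across the pairs, for deposited values (left) and after median-ratio scaling (right); other patterns are not drawn. Above in pairs 1 and 2 and below in pair 3 describes 35.7% of the interferon genes and 15.6% of genes tested.

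FSS replicate 3 was the lowest of the 6 libraries for 36 of the 42 members, and for 4643 of 10899 genes tested. The summed FPKM of the members was 3782, 3367 and 1807 in FSS replicates 1 to 3, against 3827, 3032 and 2733 in static replicates 1 to 3. The libraries numbered 3 were lower than numbers 1 and 2 in 40 members and in 6490 of 10899 genes tested, by a median of 0.60 log2 against 0.12 for all genes. Without both libraries numbered 3, limma called 2 members higher (Ifnb1 and Herc6; 3.69% of genes tested) and 3 lower (Eif2ak2, Dhx58 and Ifi35; 3.42% of genes tested). With the block as well, a fit chosen after seeing the data, 13 rose (31%, against 14.6% of genes tested) and 11 fell (26.2%, against 24.6%). Ifih1, Ifit3, Iigp1, Mx2, Oas2, Oasl1, Rsad2 and Herc6 were among those 13. Leaving out pair 3 thus moved the count of rises with the block to 13, against 5 with all pairs. What number 3 stands for is not in the labels, and its part in these counts was not tested.

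Upstream of the cytokine, of 21 tested genes in a list for the induction of interferon beta, 2 rose and none fell without the block, where 0.853% of all genes tested rose and 0.862% fell. With the block 6 rose and 3 fell (7.73% and 25.1% of all genes), and with block and scaling 7 rose and 2 fell (19.2% and 16.8% of all genes). The median of the list was -0.09 log2. Mavs, the mitochondrial adaptor of RIG-I and MDA5, averaged 23.4 ± 2.08 FPKM in FSS and 9.42 ± 1.32 FPKM in static cells (SD, n = 3 each; limma adjusted p = 0.0232). Ticam2, an adaptor of toll-like receptor 4, averaged 32.9 ± 11.1 FPKM in FSS and 9.43 ± 1.87 FPKM in static cells (limma adjusted p = 0.0423). Each of these calls held in 1 of the 6 fits with a library left out, the one without FSS replicate 3 (limma adjusted p = 0.0163 for Mavs and 0.00692 for Ticam2). Irf7, the factor that amplifies interferon production and itself a stimulated gene, averaged 24.2 ± 7.67 FPKM in FSS and 56.1 ± 13.5 FPKM in static cells and fell with the block (limma adjusted p = 0.00176, against 0.082 without). With the block Tnfaip3, the A20 brake on NF-kB, and Tank, a scaffold of the kinase TBK1, rose (1.86-fold and 1.58-fold), and Myd88, the adaptor of most toll-like receptors, fell (0.708-fold).

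Downstream of the receptors, of 15 tested genes of signal transduction, none rose and 1 fell without the block (0.853% and 0.862% of all genes tested), at a median of -0.28 log2. With the block 2 rose and 5 fell (7.73% and 25.1% of all genes), as many as with block and scaling (19.2% and 16.8% of all genes). Socs1, the feedback inhibitor of JAK kinases, averaged 50.3 ± 11.4 FPKM in FSS and 175 ± 51.8 FPKM in static cells and fell by 1.77 log2 (limma adjusted p = 0.0287), a call that held in 1 of the 6 fits with a library left out (without FSS replicate 3, limma adjusted p = 0.018). Irf1, a factor induced by interferon gamma and NF-kB, averaged 102 ± 12.5 FPKM in FSS and 49.9 ± 23.2 FPKM in static cells. It rose with the block (limma adjusted p = 0.0086, against 0.114 without). Its log2 differences were 1.47, 1.54 and 0.32 in pairs 1 to 3. Without both libraries numbered 3, Irf1 also rose in the fit without the block (limma adjusted p = 0.0174). With the block only, Socs3, another feedback inhibitor (0.561-fold), and Irf2, a relative of Irf1 (0.693-fold), fell (limma adjusted p = 0.00361 and 0.0151).

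**Figure D5:**
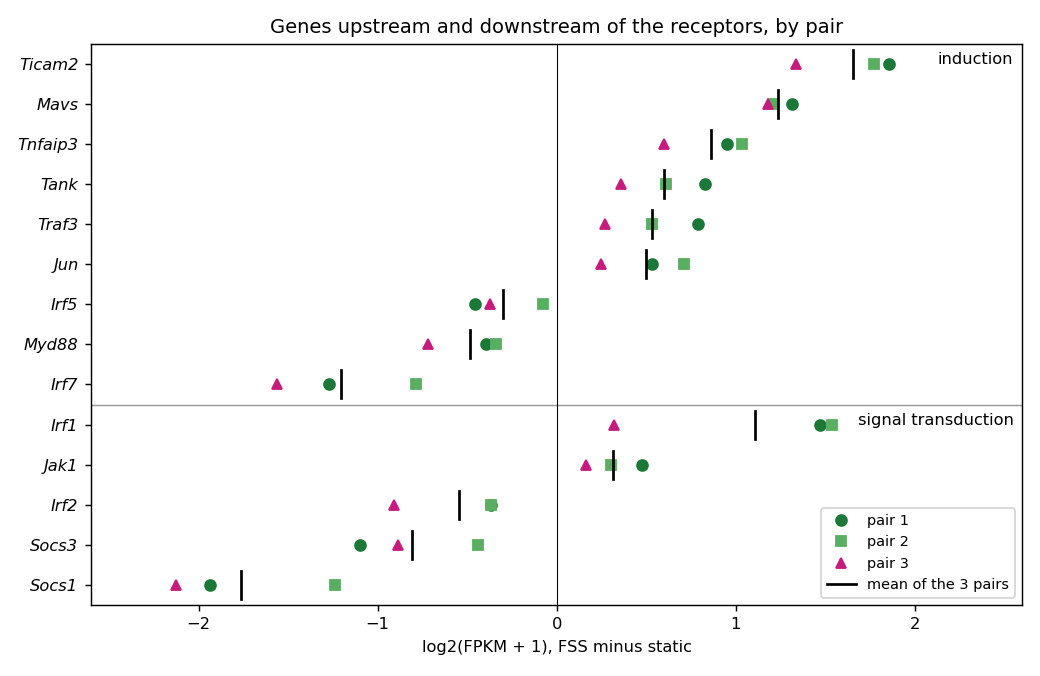
Log2(FPKM + 1) difference, FSS minus static, in the 3 pairs for the reported genes of interferon induction and signal transduction with a limma adjusted p under 0.05 with or without the block; black bars are the mean. Ticam2 and Mavs lie at 1.18 or above in every pair, and Socs1 at -1.24 or below.

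Of 45 tested stimulated genes outside the 42, none passed without the block, at a median of -0.30 log2 against -0.12 for all genes. With the block 2 rose and 19 fell, where 7.73% of all genes tested rose and 25.1% fell. With block and scaling 8 rose and 16 fell, where 19.2% of all genes rose and 16.8% fell. The rises with the block were Cxcl10, a T-cell attractant (3.19-fold), and Gbp8 (1.68-fold), the second named after its value was seen. Among the falls with the block, the GTPase gene Tgtp1 stood at 0.423-fold, Parp12, an ADP-ribosyltransferase, at 0.571-fold, Phf11d at 0.528-fold and Ifi27l2a at 0.689-fold of static. Some of these genes, such as Irf7, also stand in the lists above. Of 22 other interferon and receptor genes, 11 had values and only Il10rb could be tested. Ifna6, Ifna7 and Ifna13 were listed at 0 in every library, and Ifng stood at 0.03 to 0.23 FPKM in FSS and 0.05 to 0.17 FPKM in static libraries.

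Markers of dendritic cells were present, with Itgax (CD11c) at 397 to 502 FPKM in FSS and 502 to 599 FPKM in static libraries, while Flt3 and Cd209a stayed under 1 FPKM in each library. Of 8 tested dendritic cell markers none rose and 1 (Irf4) fell without the block, and 5 fell with it (25.1% of all genes tested), 3 with block and scaling (16.8%). Macrophage markers were present as well: their 10 genes summed to 4015 to 7521 FPKM in FSS and 3660 to 6704 FPKM in static libraries. With the block 3 of these 10 rose and 1 fell, where 7.73% and 25.1% of all genes tested did so. Of 10 markers of plasmacytoid dendritic cells, the main interferon makers, 3 (Siglech, Ccr9 and Klk1) stayed under 1 FPKM in every library. Siglech stood at 0.03 FPKM in each FSS library and was listed at 0 in each static one. Others were present. Irf8 stood at 28.95 to 41.45 FPKM in FSS and 32.99 to 60.41 FPKM in static libraries. Tcf4 stood at 12.28 to 24.89 and 12.55 to 28.22 FPKM, and Spib at 1.56 to 3.1 and 1.26 to 2.6 FPKM. Cox6a2, Ly6d and Pacsin1 passed 1 FPKM in some libraries only. The list also holds the member Bst2, and its sums were 117 to 160 FPKM in FSS and 147 to 198 FPKM in static libraries. Neutrophil markers summed to 337 to 481 FPKM in FSS and 363 to 570 FPKM in static libraries, T and NK markers (8 of 9 under 1 FPKM throughout) to 2.2 to 7.75 and 3.52 to 11.7 FPKM, and B cell markers to 3.52 to 6.8 and 4.3 to 8.22 FPKM. The part of other cells in the interferon genes was not tested. The summed FPKM of all genes was 413898 to 439110 in FSS and 432027 to 470596 in static libraries, and the number of reads behind them is unknown.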

How the data were processed

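The authors deposited expression values per NCBI gene for 6 libraries, in a series table and per sample, identical in all 6. Per the file headers no unit is named; the deposited values were taken as FPKM because value times GENCODE M21 transcript length summed to 0.552 to 0.609 times 1e9 with median lengths and 1.14 to 1.28 times 1e9 with the longest. Low values were whole multiples of a common step (tolerance 0.1) in at most 38.6% of cases, so depth is unknown. HISAT and Bowtie2 stand in the submitters' processing notes; for the quantifier, build and strand use: not given in the sources used here. Of 22899 genes, 4828 were blank. Groups and replicate numbers come from the sample titles.

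Genes reaching 1 FPKM in 3 or more libraries entered limma 3.58.1 (R 4.3.3) on log2(FPKM + 1), FSS minus static, trended variances, two-sided, Benjamini-Hochberg over all genes, threshold 0.05. The fit was tested on simulated data, where the changed genes were drawn only from levels above that of Ifnb1. Recovery of a gene as low as Ifnb1 was therefore not tested. Deviations from group means correlated at 0.79, 0.66 and 0.87 between libraries of the same number (1, 2 and 3), so the numbers were taken as pairs; the labels do not say what they share. Members and lists were chosen with earlier results of these data known. Values per library are given for Ifnb1, the receptors and members passing with or without the block, plus Ifih1, Herc6, Isg15 and Mx2, taken up after their values were seen. Up to 6 genes per other list are named; 1 gene that the rule would name is not reported here. The list gene Mb21d1 was not matched by symbol. Alternatives were the block, scaling, pseudocount, filter, threshold and libraries left out.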

Additional observations from a re-analysis of the deposited data

How the results depend on the processing

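The count of members called moved with most choices. Against 1 higher and 1 lower member, it was 5 and 12 with the replicate block, 7 and 10 with the replicate block and median-ratio scaling, 2 and 3 without replicate 3 of both groups, and 13 and 11 with the block and without that pair. Ifnb1, tested only through its FSS libraries, was among the higher members in each of these fits. With equal totals or no filter it was 1 and 0, and at a threshold of 0.01 it was 0 and 0. Leaving out single libraries gave 0 to 1 higher and 0 to 2 lower members. Over all genes, 93 higher and 94 lower became 842 and 2739 with the block, 2092 and 1829 with block and scaling, 158 and 71 with scaling, 68 and 45 with equal totals, and 14 and 7 with no filter. They became 402 and 373 without replicate 3 of both groups, 1594 and 2676 with the block as well, and 4 and 1 at a threshold of 0.01. Leaving out single libraries gave 3 to 291 higher and 0 to 176 lower genes; the upper values were those without FSS replicate 3. No filter tested more genes, and leaving out libraries left fewer to estimate the spread. The cause of the changes in these counts was not tested.

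The pseudocount of 0.1 changed no member's call or direction. Signs turned in 17 members, none of them called with all libraries, with or without the block. Median-ratio scaling, with and without the block, gave log2 differences of 0.10 for Ifi44, 0.0257 for Cmpk2, 0.0894 for Trim30a, 0.12 for Ifit2, 0.0381 for Ifnar1, 0.0042 for Gbp7 and 0.11 for Gbp3. Equal totals gave 0.0374 for Ifi44, 0.0244 for Ifit2 and 0.0227 for Gbp3. Without replicate 3 of both groups, with and without the block, the values were 0.0676 for Ifi44, 0.20 for Cmpk2, 0.13 for Trim30a, 0.23 for Ifit2, 0.0371 for Ifnar1, 0.12 for Mx1, 0.11 for Ifit1, 0.017 for Gbp7, 0.0897 for Gbp3 and 0.19 for Parp14. With single libraries left out, log2 differences ran from -0.34 to 0.40 for Ifi44, -0.36 to 0.22 for Cmpk2, -0.10 to 0.58 for Iigp1, -0.40 to 0.46 for Trim30a, -0.19 to 0.60 for Rsad2, -0.32 to 0.34 for Ifit2, -0.23 to 0.11 for Ifnar1, -0.21 to 0.40 for Ifit3 and -0.51 to 0.0868 for Mx1. They ran from -0.24 to 0.38 for Oasl2, -0.58 to 0.10 for Gbp2, -0.26 to 0.60 for Oas2, -0.45 to 0.12 for Ifit1, -0.20 to 0.78 for Ifih1, -0.58 to 0.45 for Gbp7, -0.45 to 0.50 for Gbp3 and -0.44 to 0.27 for Parp14. The block changed the call of 15 members, from not passed to passed, and no other.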
